A study of Mus musculus with 24 samples.

Results

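The myosin chains of heart muscle were followed in sorted cardiomyocytes in which the coactivators Myocd, Mrtfa and Mrtfb had been targeted alone or together. The set holds 10 of the 23337 genes of the count table: the heavy chains Myh6, Myh7 and Myh7b, the light chains Myl1, Myl2, Myl3, Myl4, Myl7 and Myl9, and the light chain kinase Mylk3. They were chosen by symbol, and all 10 were among the 12281 genes with enough counts to be tested. Polyadenylated RNA was read as counts in 24 libraries, 6 in each of 4 groups, from hearts of 4-week-old mice.

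All mice carried Cas9, the nuclease that a guide RNA directs to its target, at the Rosa locus (Rosa-Cas9/Cas9) and were injected with an adeno-associated virus (AAV) on postnatal day 1. TKO mice carried Mrfta-/- and Mrtfb-F/F, as the labels spell them, and received AAV-Myocd-sgRNA, a guide against Myocd. DKO mice had that genotype and received AAV-Cre, a recombinase that cuts out floxed DNA. MKO mice had no Mrtf alleles listed and received AAV-Myocd-sgRNA. Ctrl mice had no Mrtf alleles listed and received AAV-Cre. The Mrtfa allele is written as a deletion in the whole animal, so cells other than cardiomyocytes lack it too. The promoters of the viruses, and whether the guide virus of TKO mice also carried Cre, are not given in the sources used here. The labels do not state that each library is another animal, and a p-value here is therefore set by variation among libraries, which may be technical.

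Myosin is the motor of the thick filament, built from heavy chains that split ATP and pairs of essential and regulatory light chains that clasp the heavy chain neck. In the adult mouse ventricle Myh6, the fast alpha chain, predominates over Myh7, the slow beta chain of the fetal ventricle, and a return of Myh7 is a common mark of strained heart muscle. Each cardiac chamber has its own light chains, Myl2 and Myl3 in the ventricle and Myl7 and Myl4 in the atria. Mylk3 is the cardiac kinase that phosphorylates the regulatory light chain Myl2. Myocardin and the myocardin-related factors bind serum response factor (Srf), which recognises the CArG box, and Myl9, the regulatory chain of smooth muscle and nonmuscle myosin, is a known target of that complex.

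The 3 heavy chain genes each carry a microRNA in an intron, and these are shown because the first pair share a seed. In mm10 Myh6 spans chr14:54941921-54966607 and Myh7 chr14:54970688-54994549, both on the minus strand and 4080 bases apart, and Myh7b spans chr2:155611212-155634307 on the plus strand. The mature microRNAs are given 5′ to 3′ from RefSeq (GRCm38.p6), with the seed, bases 2 to 8, in capitals.
mmu-miR-208a-3p: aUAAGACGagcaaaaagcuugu
mmu-miR-208b-3p: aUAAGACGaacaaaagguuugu
mmu-miR-499-5p: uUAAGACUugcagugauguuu
The first lies in Myh6, the second in Myh7 and the third in Myh7b. Counting from 1 at the 5′ end, miR-208b-3p differs from miR-208a-3p by G10A, A16G and C18U, all outside the shared seed. The seed of miR-499-5p ends in another base.

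Of the 10 genes, 3 hold a CArG box within 250 bases before the RefSeq start: Myl9, Myl3 and Myl7. Among all 27025 genes with a RefSeq window 1.81% hold one on either strand, counted over windows that also take in bases just after the start. The windows of these 3 genes are shown 5′ to 3′ on the gene's strand (RefSeq, GRCm38.p6), with the match in capitals, since Myl9 and Myl3 are among the genes called lower in TKO. They cover chr2:156775214-156775463 on the plus strand for Myl9, chr9:110763428-110763677 on the plus strand for Myl3 and chr11:5898783-5899032 on the minus strand for Myl7.
Myl9: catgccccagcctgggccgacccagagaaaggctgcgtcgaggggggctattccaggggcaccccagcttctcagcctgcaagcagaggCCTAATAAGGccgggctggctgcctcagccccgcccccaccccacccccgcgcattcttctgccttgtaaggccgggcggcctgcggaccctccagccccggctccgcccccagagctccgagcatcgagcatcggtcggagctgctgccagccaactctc
Myl3: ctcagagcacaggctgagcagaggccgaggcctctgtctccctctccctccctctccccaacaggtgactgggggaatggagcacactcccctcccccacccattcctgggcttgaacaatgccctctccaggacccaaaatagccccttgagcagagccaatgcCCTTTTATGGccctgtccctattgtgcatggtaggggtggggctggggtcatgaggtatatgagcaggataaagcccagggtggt
Myl7: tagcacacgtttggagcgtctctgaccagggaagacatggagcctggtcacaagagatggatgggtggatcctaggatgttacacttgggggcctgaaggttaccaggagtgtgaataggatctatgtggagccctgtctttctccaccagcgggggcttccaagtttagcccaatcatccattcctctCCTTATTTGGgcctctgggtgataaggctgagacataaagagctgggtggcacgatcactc
The match begins 161 bases before the start in Myl9, 85 in Myl3 and 61 in Myl7. A match is a description of these letters. The window of Myh6, also called lower in TKO, holds no match, and Myl7, which holds one, was not called. The RefSeq windows of Myl2 hold no match but lie far upstream of the start that the count table gives, and the stretch before that start was not searched.

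The libraries held 5830185 to 17184517 counts. The 8 cardiomyocyte markers, among them Tnnt2 and Actn2, summed to 31400 to 36630 CPM (counts scaled to a common library size) in TKO, 32300 to 49040 in DKO, 29840 to 36530 in MKO and 34780 to 41510 in Ctrl. Irx4, Hey2 and Fhl2, which mark the ventricle, were detected in every library. Of these 3, 1 was called lower in TKO against Ctrl and 1 in TKO against MKO, beside 14.1% and 13.3% of all tested genes. Hey2 averaged 2.14 CPM in TKO, 2.55 in DKO, 3.45 in MKO and 3.47 in Ctrl. Markers of leukocytes summed to at most 27.3 CPM in a library. Endothelial markers summed to 142 to 556 CPM in TKO, 228.5 to 776 in DKO, 571 to 1229 in MKO and 139 to 1468 in Ctrl, and fibroblast markers to 324 to 419 CPM in TKO, 145 to 788 in DKO, 442 to 1217 in MKO and 172 to 764 in Ctrl. Their part in the results was not tested. DKO 1, the shallowest library, stood apart: the median of its genes over 5000 bases lay 1.63 log2 units below that of its genes under 1000 bases, relative to the other libraries, whereas the other 23 libraries lay between -0.27 and 0.36. Mrtfa, listed as Mkl1, fell by 1.86 ± 0.21 on the log2 scale in TKO and by 1.92 ± 0.21 in DKO against Ctrl. Mrtfb, listed as Mkl2, fell by 0.46 ± 0.11 in TKO and by 0.57 ± 0.11 in DKO. Counts of Myocd do not check a small edit: its log2 ratio to Ctrl was 0.40 ± 0.13 in TKO (adjusted p = 0.0438) and -0.37 ± 0.13 in MKO (adjusted p = 0.717). In bulk libraries fewer cells of a type and less RNA per cell cannot be told apart.

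Against Ctrl, Mylk3 and Myh7 rose in TKO and Myh6, Myl3 and Myl9 fell. In DKO Myl9 fell and no other member was called, and in MKO none was called. The quasi-likelihood test of edgeR gave these calls at an adjusted p under 0.05 over all tested genes. The 5 members of 10 called in TKO against Ctrl compare with 14.1% of all tested genes, the 1 of 10 in DKO against Ctrl with 0.635%, and the 0 of 10 in MKO against Ctrl with 0%. For MKO, an unadjusted p under 0.05 was found for 762 of 12281 genes, among them Myl9 and Myl4, and DESeq2 called 1 gene and no member. The median log2 ratio of the 10 genes was -0.19 in TKO, 0.07 in DKO and -0.32 in MKO against Ctrl, beside -0.01, 0.02 and -4.27e-05 over all tested genes in the same order.

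**Figure D1:**
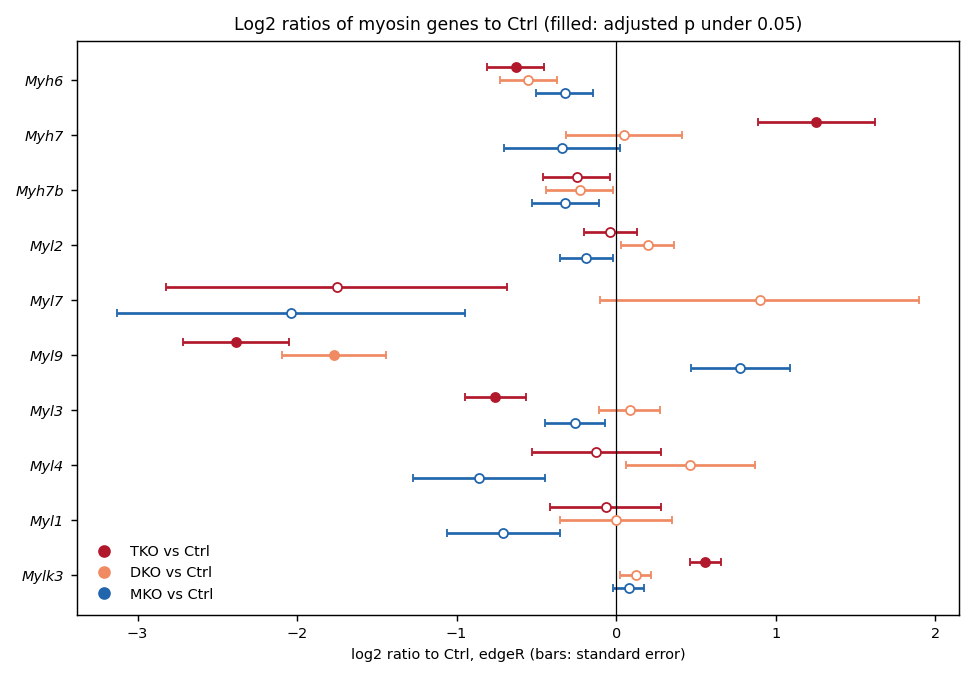
Log2 ratios to Ctrl (x axis, edgeR, 6 against 6 libraries) of the 10 myosin genes (y axis) in TKO, DKO and MKO, filled where the adjusted p is under 0.05. Bars are standard errors from the fit of all 24 libraries, so libraries outside a comparison also bear on their width. In TKO 5 points are filled, from -2.38 for Myl9 to 1.26 for Myh7, in DKO only Myl9 at -1.77, and in MKO none.

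Among the heavy chains Myh6 made up nearly all of the message. Per kb of gene length it held 96.0% to 99.4% of the 3 heavy chains in TKO libraries, 98.6% to 99.4% in DKO, 99.25% to 99.64% in MKO and 99.2% to 99.7% in Ctrl. Myh6 alone took 4.76% to 6.37% of all counts in TKO, 1.996% to 7.30% in DKO, 5.78% to 6.86% in MKO and 6.71% to 8.78% in Ctrl.

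Myh6 had a median of 51608 CPM in TKO (lowest 44367, highest 64173), 58885 CPM in DKO (23244 to 68511), 65410.5 CPM in MKO (55622 to 71302) and 82320.3 CPM in Ctrl (67489.6 to 93270.6). Every TKO library lay below every Ctrl library, while DKO and MKO overlapped Ctrl by their highest libraries. Myh6 fell by 0.63 ± 0.18 on the log2 scale in TKO against Ctrl (adjusted p = 0.0179), and this call was lost when libraries were scaled by their totals alone (-0.51, adjusted p = 0.0539). The log2 ratio was -0.55 ± 0.18 in DKO (adjusted p = 0.216) and -0.32 ± 0.18 in MKO (adjusted p = 0.779). Without DKO 1, whose 23244 CPM was the lowest of all libraries, the DKO ratio was -0.40 (adjusted p = 0.0917). The authors' deposited table lists Myh6 in DKO against Ctrl at -0.39 with an adjusted p of 0.0356.

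Myh7 had a median of 436 CPM in TKO (227 to 2059), 258 CPM in DKO (229 to 391), 217 CPM in MKO (167 to 296) and 279.5 CPM in Ctrl (184 to 379). TKO 4 alone held 2059 CPM, and the other 5 TKO libraries held 227, 321, 379, 493 and 512 CPM, of which 2 lay above every Ctrl library. Myh7 rose in TKO, with a log2 ratio to Ctrl of 1.26 ± 0.37 (adjusted p = 0.0219). Without TKO 4 the ratio was 0.47 with an adjusted p of 0.173, so the call rests on that library. It was also lost without Ctrl 4 (adjusted p = 0.0517) or Ctrl 5 (adjusted p = 0.0541), with only these 2 groups in the fit (adjusted p = 0.0749) and in the authors' deposited table (1.29, adjusted p = 0.106). In DKO the log2 ratio of Myh7 was 0.05 ± 0.36 (adjusted p = 0.983) and in MKO -0.34 ± 0.36 (adjusted p = 0.859).

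TKO 4 was also the library with the most Nppa, the atrial natriuretic peptide that strained ventricles produce. Nppa stood at 3924 CPM in TKO 4 and at 109 to 2540 CPM (lowest and highest) in the other 5 TKO libraries, against 50.7 to 403 CPM in Ctrl. The 2 genes did not keep the same order, since TKO 1 had less Nppa than TKO 6 (329 and 484 CPM) and more Myh7 (379 and 227 CPM). Whether other properties of TKO 4 have a part in its Myh7 was not tested.

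Counts of Myh7 need care for 2 reasons that can be measured. Of all 50-base stretches of the Myh7 transcripts 22.2% occur in Myh6 too, so how reads were shared between the pair is uncertain. The libraries do not keep strand, and the antisense transcript D830015G02Rik, which GENCODE calls Mhrt, shares 463 exon bases with Myh7. D830015G02Rik reached at most 106 CPM in any library and had a log2 ratio of -0.22 ± 0.24 in TKO against Ctrl (adjusted p = 0.606). In GENCODE another antisense gene, Gm31251, not used here, shares 523 exon bases with Myh7. The count line of the Mir208b precursor inside Myh7 stood at 7.13 CPM in TKO 4, within the 4.83 to 18.9 CPM of TKO, against 11.04 to 18.03 CPM in Ctrl.

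The ratio of Myh7 to Myh6 within a library, per kb of each gene, compares the chains without scaling between libraries. It had a median of 0.818% in TKO (lowest 0.439%, highest 4.03%), 0.481% in DKO (0.366% to 1.13%), 0.308% in MKO (0.242% to 0.508%) and 0.316% in Ctrl (0.218% to 0.533%). TKO 6 was the one TKO library inside the Ctrl range, and DKO 1, at 1.13%, stood above the rest of its group. On the log2 scale the mean ratio in TKO was 1.51 above Ctrl (exact permutation test, two-sided, p = 0.00649, n = 6 and 6) and 1.504 above MKO (exact p = 0.00433). Both have an adjusted p of 0.0519 over the 24 ratio tests and so miss the threshold, and the smallest p this design allows is 0.00216. DKO exceeded Ctrl by 0.71 (exact p = 0.0649) and MKO differed from Ctrl by 0.01 (exact p = 0.974). Without TKO 4 the TKO difference from Ctrl was 1.10 (adjusted p = 0.104), and without TKO 6 it was 1.74 (adjusted p = 0.0173).

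**Figure D2:**
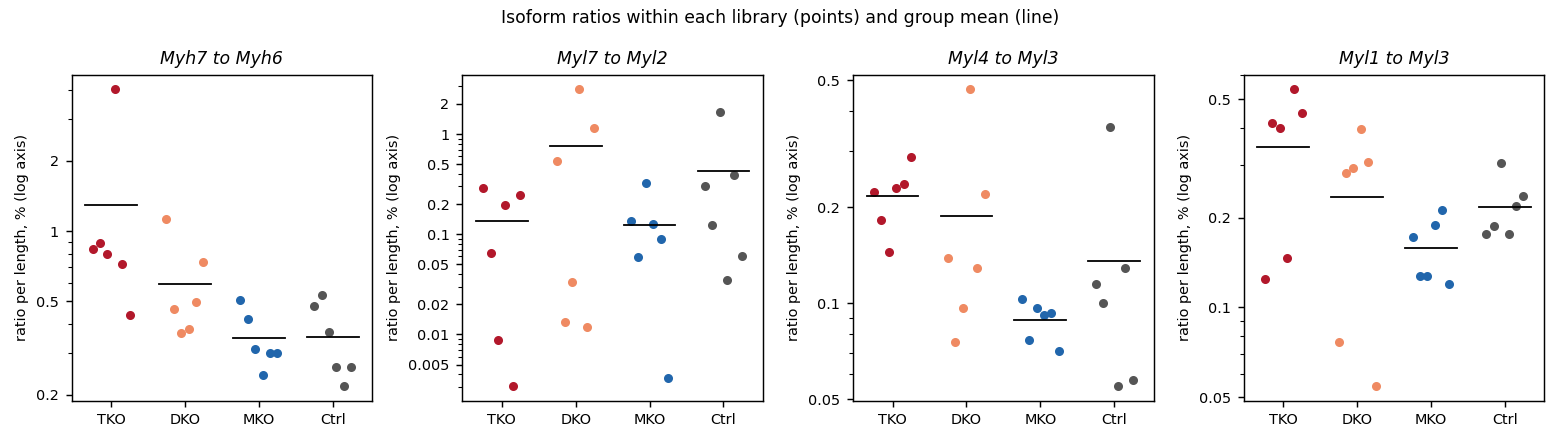
Isoform ratios per length in percent (log y axes) in each library (points) with the group mean (line) for TKO, DKO, MKO and Ctrl. Myh7 to Myh6 lies between 0.439% and 4.03% in TKO and between 0.218% and 0.533% in Ctrl, and Myl7 to Myl2 spreads from 0.00306% to 0.290% within TKO and from 0.0118% to 2.79% within DKO.

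Myh7b, a slow-type heavy chain found at low levels in heart, had a median of 133 CPM in TKO (92.8 to 177), 144 CPM in DKO (72.3 to 158), 132 CPM in MKO (84.0 to 159) and 155 CPM in Ctrl (100.5 to 224). All 4 groups overlapped, and its log2 ratio to Ctrl was -0.25 ± 0.21 in TKO (adjusted p = 0.484), -0.23 ± 0.21 in DKO and -0.32 ± 0.21 in MKO. Per kb, Myh7 and Myh7b overlapped in Ctrl, at 30.4 to 62.7 and 16.3 to 36.3 CPM per kb.

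Myl2, the regulatory chain of the ventricle, was called in no comparison. Myl2 (chr5:122100980-122106854) had a median of 3187 CPM in TKO (3042 to 3612), 3213 CPM in DKO (2882 to 7115), 2834 CPM in MKO (2644 to 3426) and 3343 CPM in Ctrl (2799 to 4039). TKO lay wholly inside the Ctrl range, with a log2 ratio of -0.04 ± 0.17 (adjusted p = 0.915), whose sign turned with library totals alone (0.09). The ratio was 0.20 ± 0.17 in DKO (adjusted p = 0.719) and -0.08 there without DKO 1.

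Myl3 (chr9:110763681-110769794), the essential chain of the ventricle, had a median of 3999 CPM in TKO (3230.0 to 5836), 6335 CPM in DKO (5499 to 15222), 6067 CPM in MKO (5468 to 6540.2) and 7050.2 CPM in Ctrl (6373 to 8685). All TKO libraries lay below all Ctrl libraries. Myl3 fell by 0.76 ± 0.19 on the log2 scale in TKO against Ctrl (adjusted p = 0.00814), and the log2 ratio to Ctrl was 0.08 ± 0.19 in DKO and -0.26 ± 0.19 in MKO (adjusted p = 0.923 and 0.798). Without DKO 1, where Myl3 stood at 15222 CPM, the DKO ratio was -0.24 (adjusted p = 0.397).

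Set against each other per kb, Myl3 exceeded Myl2 in 2 of 6 TKO libraries, 6 of 6 DKO libraries, 6 of 6 MKO libraries and 6 of 6 Ctrl libraries. The Myl3 to Myl2 ratio had a median of 0.886 in TKO (0.745 to 1.15), 1.40 in DKO (1.21 to 1.53), 1.43 in MKO (1.33 to 1.64) and 1.54 in Ctrl (1.41 to 1.62). TKO did not overlap any other group in this ratio, which was looked at after the levels were seen and has no test. DKO 1 lay at 1.51, within its group, although both chains were high in it.

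**Figure D3:**
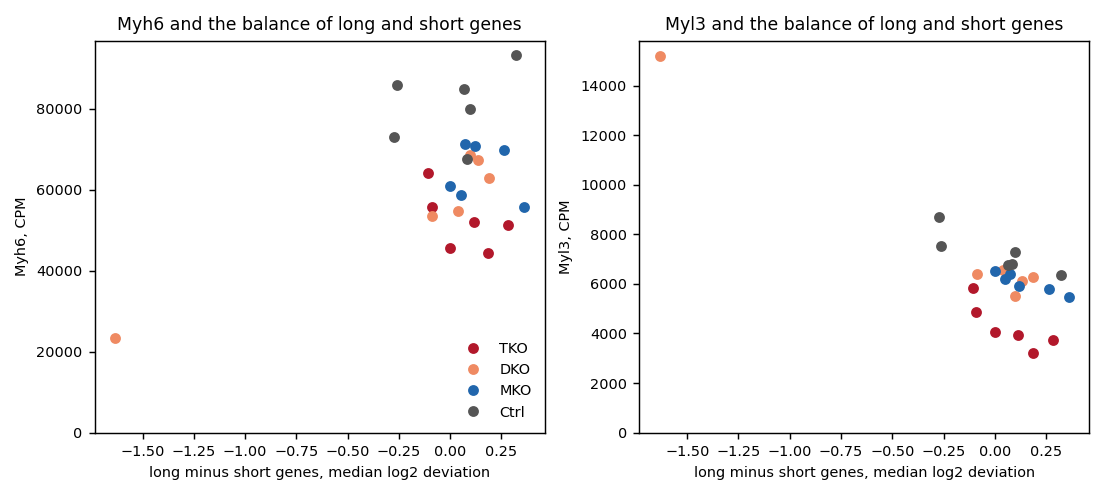
CPM of Myh6 (left) and Myl3 (right) against the balance of long and short genes in each library, the median log2 deviation of genes over 5000 bases minus that of genes under 1000 bases. DKO 1 lies alone at -1.63, with the lowest Myh6 (23244 CPM) and the highest Myl3 (15222 CPM), and the other 23 libraries lie between -0.27 and 0.36.

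DKO 1 held the long members Myh6 and Myh7b at their lowest and the short members Myl2 and Myl3 at their highest among the DKO libraries. Other members did not follow their length: Myh7 stood at 261 CPM in DKO 1, within the 229 to 391 CPM of DKO, and the short Myl1 at 14.4 CPM was the second lowest of its group. The part of DKO 1 in each DKO value was read by leaving it out: no call of DKO against Ctrl appeared or was lost, and Myl2 and Myl3 turned to -0.08 and -0.24.

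Myl7 and Myl4, the atrial regulatory and essential chains, were low and uneven in every group. Myl7 (chr11:5896637-5898782) had a median of 3.79 CPM in TKO (0.0871 to 9.77), 18.4 CPM in DKO (0.331 to 77.5), 2.78 CPM in MKO (0.0931 to 8.22) and 6.57 CPM in Ctrl (1.33 to 57.1). Myl4 (chr11:104550663-104587219) had a median of 8.59 CPM in TKO (7.49 to 11.2), 10.4 CPM in DKO (4.89 to 28.1), 5.33 CPM in MKO (3.82 to 6.30) and 7.48 CPM in Ctrl (3.60 to 26.5). The 4 libraries with the most of both were DKO 4, DKO 6, DKO 1 and Ctrl 3, with 77.5, 40.1, 36.0 and 57.1 CPM of Myl7. With edgeR over all libraries neither gene was called in any comparison. Myl7 had log2 ratios to Ctrl of -1.75 ± 1.07 in TKO, 0.90 ± 0.999 in DKO and -2.04 ± 1.09 in MKO, and the TKO ratio was -0.38 without Ctrl 3. The ratio of Myl4 in TKO was -0.12 ± 0.40 and turned to 0.48 without Ctrl 3.

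These libraries were also the ones with the most sarcolipin (Sln), the atrial inhibitor of the calcium pump. Sln stood at 13.5 CPM in DKO 4, 13.4 in DKO 1, 5.95 in DKO 6 and 10.7 in Ctrl 3, and at most 2.95 CPM in each of the other 20 libraries. The search for similar genes covered tested genes outside the set, without numbered clones, pseudogenes, microRNAs, small nucleolar RNAs, Xist, Tsix and Y-linked genes. The 3 whose log2 CPM was most like that of Myl7 over the 24 libraries were Sln (Pearson r = 0.945), Mybphl (0.936), a relative of myosin binding protein C, and Dkk3 (0.803). For Myl4 Sln (0.865) and Mybphl (0.841) led. These correlations describe libraries that share depth and preparation, and Sln and Dkk3 are on the atrial marker list. Over that list of 11 genes the summed level was 723.5 to 6053 CPM in TKO, 322 to 1472 in DKO, 329 to 529 in MKO and 293 to 703 in Ctrl, most of it Nppa and Clu. Bmp10, Hamp and Dhrs9 of that list were at 0 in 13, 17 and 13 of the 24 libraries. Not all markers kept to the libraries rich in Sln. Bmp10 was highest in Ctrl 3 and DKO 4 (9.20 and 6.10 CPM) but at 0 in DKO 6. Nppa in DKO 6, at 102.7 CPM, lay within the Ctrl range of 50.7 to 403 CPM. Nppa and Clu were highest in TKO 4, at 3924 and 2099 CPM, where Myl7 stood at 5.61 CPM. The part of atrial cells in the Myl7 and Myl4 values was not tested.

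**Figure D4:**
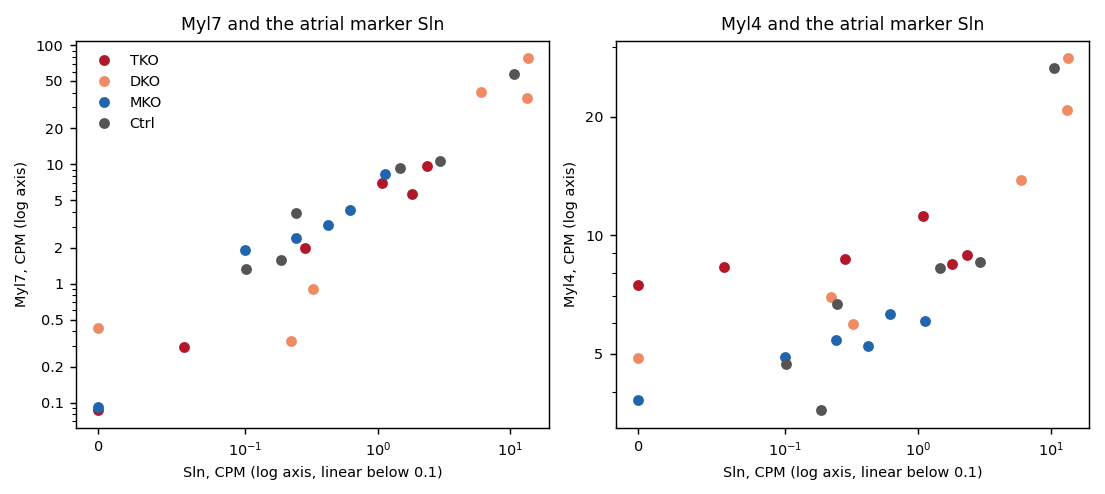
CPM of Myl7 (left) and Myl4 (right, log axes) against CPM of the atrial marker Sln (log axis, linear below 0.1), 1 point for each of the 24 libraries. DKO 1, DKO 4, DKO 6 and Ctrl 3 lie at the upper right of both panels, with 5.95 to 13.5 CPM of Sln.

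Myl4 was narrow in both groups that received the Myocd guide, with 7.49 to 11.2 CPM in TKO and 3.82 to 6.30 CPM in MKO, and the groups did not overlap. The ratio was 0.74 ± 0.41 on the log2 scale (edgeR adjusted p = 0.248), while only these 2 groups in the fit gave an adjusted p of 0.0024 and the authors' deposited table gives 0.74 with an adjusted p of 2.73e-05. Per kb, Myl4 stood at 0.145% to 0.287% of Myl3 in TKO and 0.0710% to 0.103% in MKO, a mean difference of 1.27 on the log2 scale (exact permutation test, p = 0.00216, the smallest possible, adjusted p = 0.0519, higher in 6 of 6 TKO libraries). The same ratio spanned 0.0757% to 0.469% in DKO and 0.0551% to 0.358% in Ctrl. The mean in TKO exceeded Ctrl by 0.96 (exact p = 0.0519, adjusted p = 0.156), and by 1.31 without Ctrl 3 (adjusted p = 0.026). This ratio takes in both chains: in TKO against Ctrl the edgeR log2 ratio was -0.76 for Myl3 and -0.12 for Myl4. Without Ctrl 3 these were -0.75 for Myl3 and 0.48 for Myl4, the latter not called (edgeR adjusted p = 0.417). Myl7 to Myl2 passed the test between no pair of groups, with adjusted p values from 0.446 to 0.892.

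Myl1 (chr1:66924296-66945056), the essential chain of fast skeletal muscle, had a median of 21.7 CPM in TKO (6.22 to 28.9), 21.8 CPM in DKO (4.32 to 29.9), 11.8 CPM in MKO (8.10 to 15.6) and 18.5 CPM in Ctrl (15.7 to 28.4). TKO and DKO each held libraries far below the rest, TKO 1, TKO 4 and DKO 6 at 6.22, 6.75 and 4.32 CPM, and every MKO library lay below every Ctrl library. The log2 ratio to Ctrl was -0.07 ± 0.35 in TKO, -0.0029 ± 0.35 in DKO and -0.71 ± 0.35 in MKO (adjusted p = 0.929, 0.9997 and 0.773). Of its 50-base stretches 23.4% also occur in the pseudogene Mylf-ps, so its counts are uncertain. Relative to Myl3 per kb, Myl1 in TKO exceeded MKO by 0.96 on the log2 scale (exact p = 0.0455, adjusted p = 0.156) and Ctrl by 0.50 (exact p = 0.223).

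Myl9 (chr2:156775464-156781657), the regulatory chain of smooth muscle and nonmuscle myosin, had the largest called ratios to Ctrl of the 10 genes. It had a median of 10.9 CPM in TKO (6.88 to 20.3), 14.8 CPM in DKO (7.08 to 34.8), 109 CPM in MKO (94.5 to 134) and 71.9 CPM in Ctrl (36.8 to 84.4). Both TKO and DKO lay wholly below Ctrl, and MKO wholly above it. Myl9 fell by 2.38 ± 0.33 on the log2 scale in TKO (adjusted p = 1.9e-05) and by 1.77 ± 0.33 in DKO (adjusted p = 0.00465), and its ratio in MKO was 0.78 ± 0.31 (adjusted p = 0.72). The DKO call was lost with only DKO and Ctrl in the fit (adjusted p = 0.0913). The authors' deposited table lists Myl9 in MKO against Ctrl at 0.86 with an adjusted p of 0.0242.

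The 11 smooth muscle and pericyte markers summed to 229 to 351 CPM in TKO, 262 to 448 in DKO, 591 to 1007 in MKO and 718 to 1253 in Ctrl, most of it Acta2, smooth muscle actin, which immature cardiomyocytes also make. Of the 10 tested markers only Acta2 fell in TKO and in DKO, by 2.76 ± 0.27 and 2.17 ± 0.27, and the pericyte marker Cspg4 rose in TKO by 0.86 ± 0.20. The 2 of 10 called in TKO stand beside 14.1% of all tested genes, and the 1 of 10 in DKO beside 0.635%. The defining smooth muscle genes Myh11 and Tagln had log2 ratios of -0.33 and 0.34 in TKO, 0.24 and 0.90 in DKO, and 0.38 and 0.60 in MKO, none called, and Cnn1 was at 0 in 3 libraries. Over the 10 tested markers the median log2 ratio to Ctrl was -0.53 in TKO, 0.19 in DKO and 0.63 in MKO. Against MKO 6 of the 10 fell and 1 rose in TKO, where 13.3% of all tested genes were called. In that comparison 6 of 10 endothelial markers fell too. The part of smooth muscle cells or pericytes in the Myl9 values was not tested. In MKO the pericyte marker Rgs5 stood at 0.94 ± 0.39 (adjusted p = 0.737). The genes most like Myl9 over the 24 libraries were Dstn (r = 0.916), an actin-depolymerising factor, Rpl3 (0.91), a ribosomal protein, and Pnck (0.892), a calmodulin-dependent kinase, and with group means removed their r was 0.61, 0.701 and 0.675.

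Mylk3 (chr8:85324929-85365324) had a median of 1427 CPM in TKO (1269 to 1823), 1081 CPM in DKO (1053 to 1164), 1043 CPM in MKO (982 to 1166) and 1053 CPM in Ctrl (822 to 1113). Every TKO library lay above every library of the other 3 groups, which overlapped one another. The TKO to Ctrl log2 ratio of Mylk3 was 0.56 ± 0.10, a rise (adjusted p = 0.000219), with ratios of 0.12 ± 0.10 in DKO (adjusted p = 0.692) and 0.08 ± 0.10 in MKO (adjusted p = 0.881). Leaving out any single library kept the TKO ratio between 0.49 and 0.60. The genes most like Mylk3 were Nt5e (r = 0.92), an ecto-enzyme that makes adenosine, Gosr2 (0.916), a Golgi transport protein, and Tmbim1 (0.912). With group means removed their r was 0.705, 0.759 and 0.731.

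**Figure D5:**
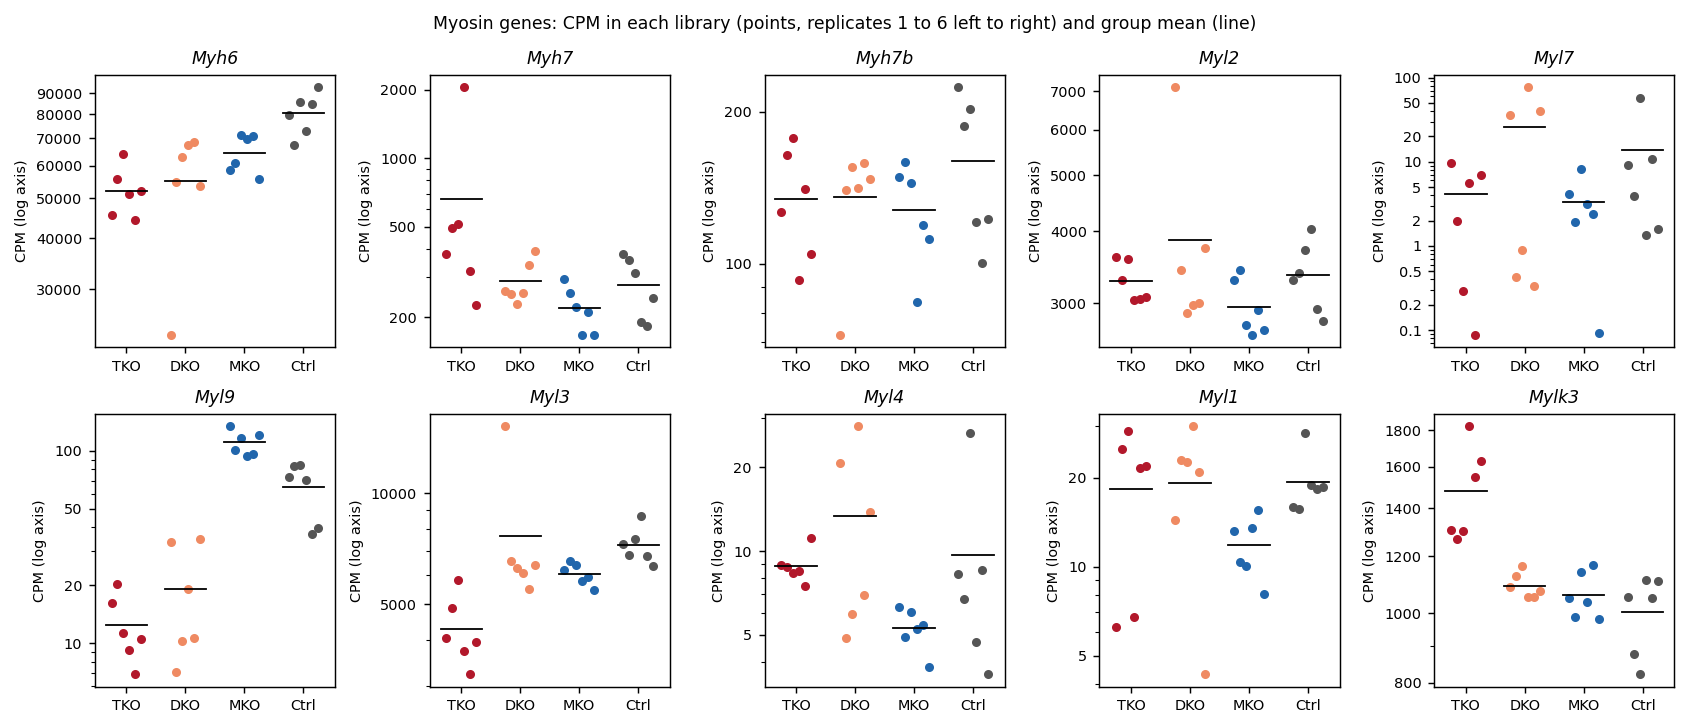
CPM (log y axes) of the 10 myosin genes in each library (points, replicates 1 to 6 from left to right) with the group mean (line) for TKO, DKO, MKO and Ctrl. Mylk3 in TKO (1269 to 1823 CPM) lies above all other libraries, Myl9 in TKO and DKO (6.88 to 34.8 CPM) below all Ctrl libraries, and Myh7 in TKO spans 227 to 2059 CPM.

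TKO and DKO carry the same Mrtf alleles and differ in the virus, AAV-Myocd-sgRNA in TKO and AAV-Cre in DKO. Here 3 of the 10 members were called, against 6.38% of all tested genes: Myh7 rose by 1.21 ± 0.37 in log2 units (adjusted p = 0.0487) and Mylk3 by 0.44 ± 0.10 (adjusted p = 0.00602), and Myl3 fell by 0.84 ± 0.19 (adjusted p = 0.00785). Myh7 lost its call when any of 18 of the 24 libraries was left out, with an adjusted p of 0.275 without TKO 4. Myl3 fell by 0.52 without DKO 1 (adjusted p = 0.00429). With only TKO and DKO in the fit none of the 3 passed, at an adjusted p of 0.184 for Myh7, 0.099 for Myl3 and 0.0647 for Mylk3. Myh6 and Myl9, lower in TKO than in Ctrl, had TKO to DKO ratios of -0.08 ± 0.18 (adjusted p = 0.815) and -0.61 ± 0.33 (adjusted p = 0.261).

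TKO and MKO received the same virus, AAV-Myocd-sgRNA, and differ in the Mrtf alleles. Of the 10 members 3 were called, against 13.3% of all tested genes. Myh7 rose by 1.59 ± 0.37 (adjusted p = 0.00564), Mylk3 rose by 0.48 ± 0.10 (adjusted p = 0.00152) and Myl9 fell by 3.16 ± 0.34 (adjusted p = 8.52e-07). Myh7 kept this call without TKO 4, at 0.81 (adjusted p = 0.0172). Myl3 had a ratio of -0.50 ± 0.19 (adjusted p = 0.0824) and passed without DKO 1 (-0.49, adjusted p = 0.00248), with a standard error of 0.11 in place of 0.19. In DKO against MKO 1 of the 10 was called, against 0.79% of all tested genes, with Myl9 2.55 ± 0.33 lower in DKO (adjusted p = 8.1e-05), and DESeq2 also called Myl4 (1.35, adjusted p = 0.0416).

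Whether the difference between the viruses changed with the Mrtf alleles was tested by an interaction term, the TKO to DKO log2 ratio less the MKO to Ctrl log2 ratio. None of the 10 members was called, against 0.464% of all tested genes (57 genes by edgeR, 187 by DESeq2, and 1520 with an unadjusted p under 0.05). The edgeR values were 1.54 ± 0.52 for Myh7 (adjusted p = 0.202), -1.39 ± 0.45 for Myl9 (adjusted p = 0.188), -0.58 ± 0.27 for Myl3 (adjusted p = 0.37) and 0.36 ± 0.14 for Mylk3 (adjusted p = 0.259), each with an unadjusted p under 0.05. DESeq2 called none of the 10 either. The comparisons of TKO with DKO, MKO and Ctrl share their TKO libraries, so their values for a gene are not independent.

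Levels per kb separated the 4 most abundant members from one another in Ctrl. Myh6 lay at 11102 to 15343 CPM per kb, Myl3 at 7097 to 9671, Myl2 at 4422.5 to 6380.3 and Mylk3 at 268 to 362, with no overlap between neighbours. Below them Myl9 (34.0 to 78.0), Myh7 (30.4 to 62.7), Myh7b (16.3 to 36.3), Myl7 (2.25 to 96.8), Myl1 (14.2 to 25.5) and Myl4 (4.08 to 30.0) each overlapped the next. In TKO, Myh6 still lay highest, at 7298 to 10557 CPM per kb, while Myl2 and Myl3 overlapped.

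The other myosin chains with enough counts to test were of nonmuscle and smooth muscle type. Of 8 nonmuscle and smooth muscle chains, all tested, Myh10 and Myl12a rose in TKO against Ctrl, by 0.84 ± 0.22 (adjusted p = 0.0113) and 0.51 ± 0.15 (adjusted p = 0.0227). The 2 of 8 stand beside 14.1% of all tested genes. Myh10, nonmuscle heavy chain IIB, also rose against DKO by 0.86 ± 0.22 and against MKO by 0.66 ± 0.22. None of the 8 was called in DKO or MKO against Ctrl, where 0.635% and 0% of all tested genes were called. The list median in TKO against Ctrl was 0.21, beside -0.01 over all tested genes. The 9 skeletal and developmental chains, such as embryonic Myh3 and perinatal Myh8, had too few counts to test, and their summed level was at most 1.997 CPM in a library. Myh1 and Myl10 had no count in any library.

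Of 10 kinase and phosphatase genes 2 rose and 1 fell in TKO against Ctrl, where 14.1% of all tested genes were called: Mylk2, the skeletal light chain kinase, rose by 2.96 ± 0.56 (adjusted p = 0.000636), the kinase Rock2 by 0.53 ± 0.13 (adjusted p = 0.00526), and Mylk4, a member of the light chain kinase family, fell by 1.22 ± 0.32 (adjusted p = 0.00955). Mylk2 reached at most 2.16 CPM in a library. Rock2 also rose against DKO, by 0.48 ± 0.12. Against MKO Rock2 and Mylk2 rose, and Mylk4 and Mylk, the smooth muscle kinase, fell, by 1.45 ± 0.32 and 1.23 ± 0.36. The list median in TKO against Ctrl was 0.10. No gene of this list was called in DKO or MKO against Ctrl, where 0.635% and 0% of all tested genes were called.

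Of 19 partners of the thick filament 17 were tested, and in TKO against Ctrl the myosin binding protein Mybpc2 rose by 1.39 ± 0.22 (adjusted p = 9.91e-05) and the chaperone Hsp90aa1 by 0.54 ± 0.16, while Trim55, a ubiquitin ligase of the sarcomere, fell by 0.67 ± 0.09 (adjusted p = 9.07e-06) and the giant ruler protein Ttn by 0.80 ± 0.22. Against DKO Mybpc2 rose by 0.94 ± 0.22 and the cardiac Mybpc3 by 0.48 ± 0.11, and Trim55 fell by 0.32 ± 0.09. Against MKO Mybpc2, Hsp90aa1 and the M-band protein Myom3 rose, the last by 0.97 ± 0.29, and Trim55 fell by 0.40 ± 0.09. The 4 of 17 called in TKO against Ctrl stand beside 14.1% of all tested genes. The myosin chaperones Unc45b and Smyd1 were called in no comparison. The list medians against Ctrl were 0.04 in TKO, 0.05 in DKO and -0.14 in MKO. In DKO and in MKO 0 genes of the list were called, beside 0.635% and 0% of all tested genes.

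Of 22 regulators of the choice between heavy chains, such as the thyroid hormone receptors Thra and Thrb, the repressors Purb and Sox6 and the mediator subunit Med13, 20 were tested. Of these 1, the cardiac transcription factor Gata4, was called in TKO against Ctrl, at 0.35 ± 0.09 (adjusted p = 0.00754), beside 14.1% of all tested genes. Against MKO 2 of the 20 fell, beside 13.3% of all tested genes, among them the retinoid receptor Rxra by 0.58 ± 0.16. The list median in TKO against Ctrl was 0.05. No regulator was called in TKO against DKO, DKO against Ctrl or MKO against Ctrl, beside 6.38%, 0.635% and 0% of all tested genes.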

How the data were processed

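RNA from 24 libraries of FACS-sorted cardiomyocytes was prepared with SMART-Seq v4 and Nextera XT, per the labels' protocols, which do not keep strand. Reads were aligned with STAR to mm10 and counted with featureCounts, per the submitters' processing notes, and the authors deposited whole-number counts per gene. How reads that map to several genes were treated is not stated. The authors' deposited tables of DESeq2 comparisons hold log2 fold changes, p-values, a test score and a mean signal of scaled counts, per the file headers.

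From the counts, edgeR 4.0.16 (R 4.3.3, limma 3.58.1) gave log2 ratios and quasi-likelihood tests with TMM scaling, 1 coefficient per group over all 24 libraries and a minimum count of 10 in filterByExpr, with Benjamini-Hochberg adjustment over 12281 genes and calls at an adjusted p of 0.05. CPM are counts divided by the TMM-scaled library size. Errors are standard errors. Isoform ratios used counts per gene length within a library and exact two-sided permutation tests, adjusted over 24 tests. The fit, the permutation test and the likeness search were tested on simulated data. Depth was 5830185 to 17184517 counts, which limits the low genes, and reads carry no molecular identifiers.

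Alternatives were DESeq2 1.42.0, other scalings, no filter, fits of 2 groups, 22 libraries (without Ctrl 3 and DKO 1), a replicate block and leaving out each library. All 10 myosin genes are named, with up to 4 called genes of each list by smallest adjusted p (1 such gene is not reported here) and the 3 most similar genes of those the text turns on. Further genes of the marker lists, Unc45b, Smyd1 and the ratio of Myl3 to Myl2 were chosen after their values were seen. The members and lists were chosen with earlier results of these data known.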

Additional observations from a re-analysis of the deposited data

Results flagged for a closer look

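In 12 of the 56 sets of 6 values checked (the 10 genes and 4 isoform ratios in each group), 1 library lay far from the other 5 of its group. For independent, normally distributed values chance sets about 1 in 20 such groups apart. The sets checked here share libraries and genes and some are skewed, so that rate is only a rough guide.

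DKO 1 accounted for 4 of the 12 sets. It had the lowest Myh6 of its group, 23244.2 CPM beside 53412 to 68511, and the lowest Myh7b, 72.3 CPM beside 140.1 to 158. It had the highest Myl2, 7115 CPM beside 2882 to 3746, and the highest Myl3, 15222.5 CPM beside 5499 to 6563. Its balance of long against short genes was -1.63.

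TKO 4 stood apart in Myh7, with 2059 CPM beside 227 to 512, and in the ratio of Myh7 to Myh6, with 4.03% beside 0.439% to 0.890%.

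Ctrl 3 stood apart in Myl7, with 57.1 CPM beside 1.33 to 10.7, in Myl4, with 26.5 CPM beside 3.60 to 8.55, and in Myl1, with 28.4 CPM beside 15.7 to 18.9. It also stood apart in the ratio of Myl7 to Myl2, with 1.65% beside 0.0353% to 0.391%, and of Myl4 to Myl3, with 0.358% beside 0.0551% to 0.129%. DKO 4 stood apart in the ratio of Myl4 to Myl3, with 0.469% beside 0.0757% to 0.220%. The atrial marker Sln was at 13.5 CPM in DKO 4, against 10.7 CPM in Ctrl 3. Its part in these values was not tested.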

How the results depend on the processing

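The number of myosin genes called stayed within 1.5 times under 212 of 216 settings. In each comparison 24 of these settings left out 1 library, also libraries outside that comparison. A change from 3 calls to 2 stays within this limit, as when Myh7 lost its call in TKO against DKO under 18 of the 24. With only the 2 groups compared in the fit the number called was 0 in DKO against Ctrl, 0 in TKO against DKO and 5 in TKO against MKO. With DESeq2 it was 2 in DKO against MKO. The cause was not tested. Over all genes the largest shifts were 2892 calls in TKO against MKO with 22 libraries (without Ctrl 3 and DKO 1), beside 1639, and 187 by DESeq2 for the interaction, beside 57. With library totals alone the median log2 ratio of all genes was 0.116 in TKO and 0.111 in DKO against Ctrl, beside -0.01 and 0.02.

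Signs turned for ratios near 0. With 22 libraries Myl2 was -0.051 in DKO against Ctrl, 0.043 in TKO against DKO and 0.22 in the interaction, Myl3 -0.23 and Myl1 0.19 in DKO against Ctrl, Myl4 0.48 and Myl1 0.070 in TKO against Ctrl, and Myl4 -0.16 in the interaction. With library totals alone Myl1 was 0.089 in DKO, and Myl2 0.090, Myl4 0.012 and Myl1 0.055 in TKO, against Ctrl. The ratio of Myl4 to Myl3 was 0.032 in MKO and 1.31 (adjusted p = 0.026) in TKO against Ctrl with 22 libraries, and Myl1 to Myl3 0.17 in DKO against Ctrl. As differences of medians Myh7 to Myh6 was -0.017 in MKO against Ctrl, Myl7 to Myl2 0.084 in TKO against MKO and Myl1 to Myl3 0.51 in DKO against Ctrl.

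The replicate numbers did not pair the libraries: of 36 same-numbered pairs 14 correlated above 0.1 (r -0.218 to 0.642) and 4 best with their own number. With the replicate block 4 genes were called in TKO against Ctrl and 2 in TKO against DKO, Myh7 being lost in both, and Myl2 in the interaction was 0.0046.

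Leaving out 1 library gave Myh7 -0.057 to 0.16, Myl1 -0.18 to 0.21, Myl2 -0.078 to 0.27 and Myl3 -0.24 to 0.16 in DKO against Ctrl, and Myl1 -0.25 to 0.11, Myl2 -0.088 to 0.03 and Myl4 -0.30 to 0.48 in TKO against Ctrl. It gave Myh7b -0.14 to 0.067, Myl1 -0.28 to 0.12 and Myl2 -0.31 to 0.038 in TKO against DKO, and Myh7b -0.013 to 0.16 and Myl7 -0.20 to 0.81 in TKO against MKO. In the interaction Myl2 was -0.12 to 0.24, Myl4 -0.32 to 0.65 and Myl7 -1.98 to 0.15. The ratio of Myh7 to Myh6 was -0.11 to 0.14 in MKO and 1.10 to 1.74 in TKO against Ctrl, and 1.09 to 1.73 in TKO against MKO. Myl7 to Myl2 was -1.27 to 0.31 in DKO against Ctrl and -1.20 to 0.47 in TKO against MKO. Myl4 to Myl3 was -0.51 to 0.032 in MKO and 0.77 to 1.31 in TKO against Ctrl, 1.19 to 1.38 in TKO and 0.49 to 1.02 in DKO against MKO. Myl1 to Myl3 was -0.41 to 0.17 in DKO against Ctrl.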

Other observations

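The search for similar genes left out the myosin set, so no chain of the set could appear here as like another. Of the genes searched, those whose log2 CPM over the 24 libraries was most like that of the ventricular chains were not contractile. For Myl3 they were Ndufs7 (r = 0.96), Uqcrfs1 (0.947) and Sdhb (0.947), which encode subunits of the respiratory chain, and for Myl2 they were Hint1 (0.957), Tmem147 (0.946) and Psma6 (0.946). For Myh6 they were Lrpprc (0.953), Camk2d (0.93) and Kif16b (0.923), and for Myh7 Brf1 (0.821), Neat1 (0.819) and Anxa4 (0.806). These correlations describe libraries that share preparation and include DKO 1, and no test was made of them.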
